A study of Mus musculus with 6 samples.

Results

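Antisense genes are transcription units that the annotation places on the strand opposite to a protein-coding gene. The set described here holds every gene with the deposited biotype antisense and a mean of at least 1 FPKM (fragments per kilobase of exon, scaled to library size) over the 6 libraries of the study. It has 213 members among 2826 antisense genes and 54532 genes in all, and 12299 genes of any biotype reached the same mean. The mean level chose the members, so their levels are a description and were not tested. Each member was paired with the protein-coding genes that overlap it on the other strand in the deposited mm10 coordinates.

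The libraries came from mouse cells called primary lung fibroblasts, connective tissue cells that make the matrix of the lung. There were 3 libraries titled NC (NC1 to NC3) and 3 titled calumenin KD (KD1 to KD3). KD is a knockdown of Calu, which encodes a calcium-binding protein of the secretory pathway, and the study asked how its loss affects senescence and fibrosis signalling. The sample descriptions name the same libraries WT and KO, and the design text speaks of knockout or knockdown. The sources used here do not spell out NC and do not give strain, age, the knockdown agent or the origin of the replicates. P-values therefore measure the spread between these libraries, which may be technical.

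Some antisense RNAs act on the gene they overlap, by transcription through its promoter, by pairing with its RNA or by recruiting chromatin regulators. Airn, transcribed across the start of the imprinted Igf2r gene, silences the paternal allele in cis. Many others have no known role, and unstable antisense transcripts are removed in the nucleus by the RNA exosome. In a knockdown the level of an antisense RNA can be read only beside its partner, because the pair can share a promoter region, open chromatin or, in part, sequence.

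Depth was 15907164 to 18312888 reads per library. Calu had 220 to 227 FPKM in NC and 12.6 to 14.6 in KD. Mitochondrial genes took 2.56% of reads in KD1 against 1.60% to 1.97% in the other 5 libraries, so counts are also given without KD1. Of 12 fibroblast markers 7 were high enough to test, and 3 were higher and 2 lower in KD. Col1a1, Fn1 and Pdgfra were higher, Col3a1 (log2 difference -1.11) and Pdgfrb (-0.28) lower, and Col1a2 and Vim did not pass. Dcn, Lum, Fbln1 and Tcf21, which lung fibroblasts usually express, stayed below 0.1 FPKM. Thy1 was also too low to test, at 0.126 FPKM in NC and 0.104 in KD. Summed epithelial markers reached at most 1.02 FPKM and endothelial markers 0.169. Immune markers summed to between 3.38 and 5.75 FPKM, with Ptprc, Adgre1 and Cd3e below 0.1. Most of that sum was Cd68 (3.71 FPKM in NC and 2.74 in KD) and Lyz2 (1.48 and 1.47). The 4 mesothelial markers summed to between 10.4 and 14.8 FPKM, nearly all of it Msln, and the smooth muscle and pericyte list to between 40.6 and 54.9, nearly all of it Cspg4. None of the tested markers of these other types passed the test. The part of cell composition in the differences below was not tested.

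In 12 of the 30 members that passed the test described below, an exon of the antisense RNA is complementary to coding sequence of a partner. Of these, 5 were picked by hand for printing, as the members whose values are described at length below, and 1 stretch of each is shown because reads from one strand could be taken for the other there if strand were not used. Each is written 5′ to 3′ along the antisense RNA from GENCODE M21 transcripts, with the complement of the partner's coding sequence in capitals and up to 15 bases of flanking antisense exon in lower case.
Gm15825 opposite Tfap2d, capitals at chr1:19104670-19104840, minus strand: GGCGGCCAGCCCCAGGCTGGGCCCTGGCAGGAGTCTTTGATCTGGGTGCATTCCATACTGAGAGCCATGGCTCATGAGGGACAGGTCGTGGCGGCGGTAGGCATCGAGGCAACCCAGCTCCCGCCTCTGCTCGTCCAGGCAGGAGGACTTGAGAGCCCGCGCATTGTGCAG
Gm13544 opposite Acvr1c, capitals at chr2:58284832-58284999, plus strand: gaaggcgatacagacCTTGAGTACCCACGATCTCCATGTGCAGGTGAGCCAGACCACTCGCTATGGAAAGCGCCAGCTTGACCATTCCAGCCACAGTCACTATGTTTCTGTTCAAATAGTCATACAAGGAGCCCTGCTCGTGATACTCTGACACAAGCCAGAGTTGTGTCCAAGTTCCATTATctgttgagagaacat
A530040E14Rik opposite C130026I21Rik, capitals at chr1:85113493-85113655, plus strand: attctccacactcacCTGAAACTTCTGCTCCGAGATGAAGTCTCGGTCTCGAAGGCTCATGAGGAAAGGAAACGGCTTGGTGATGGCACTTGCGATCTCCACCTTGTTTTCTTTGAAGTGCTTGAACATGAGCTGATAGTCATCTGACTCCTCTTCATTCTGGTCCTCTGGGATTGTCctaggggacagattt
Gm49490 opposite C1qtnf6, capitals at chr15:78531293-78531382, plus strand: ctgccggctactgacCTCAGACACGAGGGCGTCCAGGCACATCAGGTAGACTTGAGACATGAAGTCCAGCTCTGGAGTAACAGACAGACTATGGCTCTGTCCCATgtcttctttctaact
Gm19610 opposite Ereg, capitals at chr5:91074760-91074773, minus strand: GGGAGCGTCTCCATccttctttctcggtg
In the stretches of Gm49490 and Gm19610 the capitals end in CAT, the complement of the ATG with which the partner's coding sequence starts. The printed stretches of Gm15825, Gm13544, A530040E14Rik, Gm49490 and Gm19610 hold 171, 168, 163, 90 and 14 complementary coding bases.

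Promoter windows of RefSeq (GRCm38.p6, from 250 bases before to 50 after a start) matched 78 members by symbol, with 91 windows, and 2 are shown. Ptprtos is the highest of the members that changed, and Gm13822 had the largest fall. CG dinucleotides are in capitals.
Ptprtos, chr2:162390563-162390862, plus strand: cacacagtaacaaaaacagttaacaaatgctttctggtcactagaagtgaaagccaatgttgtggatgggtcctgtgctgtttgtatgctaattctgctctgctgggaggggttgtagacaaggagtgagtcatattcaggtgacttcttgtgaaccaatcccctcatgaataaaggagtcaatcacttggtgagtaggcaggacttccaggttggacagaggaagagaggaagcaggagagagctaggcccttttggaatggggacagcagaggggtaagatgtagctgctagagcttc
Gm13822, chr5:114922212-114922511, minus strand: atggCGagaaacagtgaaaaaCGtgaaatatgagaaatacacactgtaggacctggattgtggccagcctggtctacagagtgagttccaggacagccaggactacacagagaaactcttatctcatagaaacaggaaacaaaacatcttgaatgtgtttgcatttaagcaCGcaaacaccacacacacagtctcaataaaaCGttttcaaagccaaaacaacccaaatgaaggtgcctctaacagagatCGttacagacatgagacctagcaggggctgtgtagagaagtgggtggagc
The Ptprtos window holds 0 CG dinucleotides and the Gm13822 window 5. RefSeq starts Gm13822 inside the deposited gene, so this window does not cover the deposited start that faces Oasl1. The median was 10 CG dinucleotides over member windows, 19 over 249 partner windows and 7 over all 32851 windows. Within the members it was 29 for the 9 windows of members with no overlapping partner, 14 for tail-to-tail, 9 for head-to-head and 6 for members inside their partner. The letters GAAANNGAAA, the core of the interferon-stimulated response element, were searched on both strands. They occurred in 3 of 91 member windows, or 3.30%, against 3.44% of all windows, and in 0 of the 11 windows of members that passed the test.

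Most members lie within a longer coding gene. Of the 213, 196 had a partner, 167 of them exactly 1 and 29 several (up to 6), which made 234 pairs with 228 partners. By their main partner, 108 members lay inside it, 44 were head to head with it (overlapping starts), 37 tail to tail (overlapping ends) and 7 spanned it. Of the 17 without an overlapping partner, 10 ended or started within 200 bp of a coding gene on the other strand. Exon overlap could be read for 191 members. It was absent in 76, and in the other 115 a median of 18.6% of the member's exon bases lay opposite exons of the partner, with 65.5% at most.

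Members were short and weakly expressed. Their median level was 1.73 FPKM against 8.22 for all 12299 tested genes, and their median exon length was 902 bases against 3787. Only 22 reached 5 FPKM and 6 reached 10 FPKM, while 121 stayed under 2. The number of reads over all 6 libraries ranged from 25 to 20482 with a median of 215, and 47 members had fewer than 100. Just inside the limit were Gm10791 (1.002 FPKM), 2010103J01Rik (1.003) and Gm29100 (1.01). Just outside were Gm15283 (0.997), Gm11940 (0.993) and Gm15418 (0.989). In 56 members the level per length was above that of the main partner. Over the pairs, the log2 level of a member had no linear relation to that of its partner (r = -0.01, a description across genes).

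Whether the authors' counting used strand is not stated, and the files answer this in part. Of 30 antisense genes with at least 90% of their exon bases opposite exons of a coding gene at 10 FPKM or more, 29 had 0 reads. The other had 0.115% of its partner's level. Reads from partner exons were thus not counted for those 29, whether by strand or by dropping reads that fit both genes. For introns the values do not separate the strands. Non-coding genes wholly within an intron of a coding gene at 10 FPKM or more had a median of 0.193 FPKM on the opposite strand (n = 154) and 0.192 on the same strand (n = 371). For a member inside an intron, its own reads and reads from the partner's unspliced RNA cannot be told apart where the level is low.

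The 8 members with the highest means were Gm17201, Ptprtos, Tug1, Brip1os, Gm29237, Gm26944, Gm11816 and Gt(ROSA)26Sor. Gm17201 (chr10:128391842-128395563, minus strand), inside Ankrd52, had 33.4, 35.3 and 36.1 FPKM in NC1 to NC3 and 29.2, 29.7 and 33.8 in KD1 to KD3. The groups overlapped and the difference did not pass (log2 difference -0.17, limma adjusted p = 0.130), although it passed without KD3 (adjusted p = 0.0457). The median difference of tested genes on chromosome 10 was -0.19. With the median of each chromosome removed, the difference of Gm17201 was 0.02 (limma adjusted p = 0.907). Tug1, a widely expressed long RNA with 20482 reads, had 20.1, 19.9 and 18.9 FPKM in NC and 26.3, 21.6 and 18.9 in KD. KD1 was the highest library, KD3 was level with NC3, and the difference of 0.16 did not pass (adjusted p = 0.338). Its partner Morc2a, an ATPase of heterochromatin silencing, starts 179 bp away on the other strand and had 24.9 ± 0.04 and 23.5 ± 0.22 FPKM (SD, n = 3 each).

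Gm26944, tail to tail with the termination factor gene Pcf11, had 8.75, 9.34 and 7.87 FPKM in NC and 15.5, 9.44 and 9.62 in KD. KD1 was again the high library (adjusted p = 0.212). Gm11816, inside Clvs1, had 9.17, 9.40 and 10.2 FPKM in NC and 8.79, 7.55 and 7.03 in KD, below every NC library but not past the threshold (adjusted p = 0.0665). Without KD1 it passed at -0.35 (adjusted p = 0.00741). Gt(ROSA)26Sor, the locus into which mouse transgenes are often placed, had 7.66 ± 0.91 FPKM in NC and 7.76 ± 2.0 in KD, a difference far within the spread. Ptprtos, Brip1os and Gm29237 passed and are described below.

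The comparison of KD with NC asked which antisense RNAs changed after Calu knockdown. Differences are on the log2(FPKM + 1) scale, which understates the change of low genes, and a member passed at a limma adjusted p below 0.05 over all 12299 tested genes. In KD, 22 members were higher and 8 lower, or 10.3% and 3.76%. Over all tested genes 10.9% were higher and 13.6% lower, so the share of higher members was near the background and that of lower members was below it. For lincRNA genes, the class closest to the members in kind, 16.3% were higher and 6.98% lower. Of 183 partners that could be tested, 27 were higher and 22 lower, or 26.8% in either direction. Whether members passed less often because of their low read numbers was not tested.

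Without KD1, 31 members were higher and 13 lower, and 42.4% of all genes passed. Leaving out each of the other libraries gave 9 to 18 higher and 6 to 9 lower members, and none of the 30 changed sign in any alternative. The 3 KD values lay above all NC values in 53 members and below them in 16, while 21.3% and 22.9% of all tested genes did so.

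Most members had a difference above 0. The median was 0.17, against 0.01 over all tested genes, 0.12 over 258 lincRNA genes and 0.00 over 10298 protein-coding genes. It was above 0 in 141 of 213 members (66.2%) and in 51.4% of all tested genes. These members include 25 that reached 1 FPKM only through KD and 12 only through NC, whose direction is not independent of the level limit. The median and share without them are not given here. Without KD1 the median was 0.15, and 139 members were above 0. The members took 0.0958%, 0.0961% and 0.0969% of the reads in NC1 to NC3 and 0.125%, 0.117% and 0.112% in KD1 to KD3, so the 3 KD libraries were higher than the 3 NC libraries. These shares weigh members by their reads, of which Tug1 alone had 20482. They also include the members that reached 1 FPKM only through KD. The median member difference by position was 0.22 for head-to-head members, 0.11 for those inside the partner, 0.13 for tail-to-tail and 0.31 for the 7 that spanned it.

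**Figure D1:**
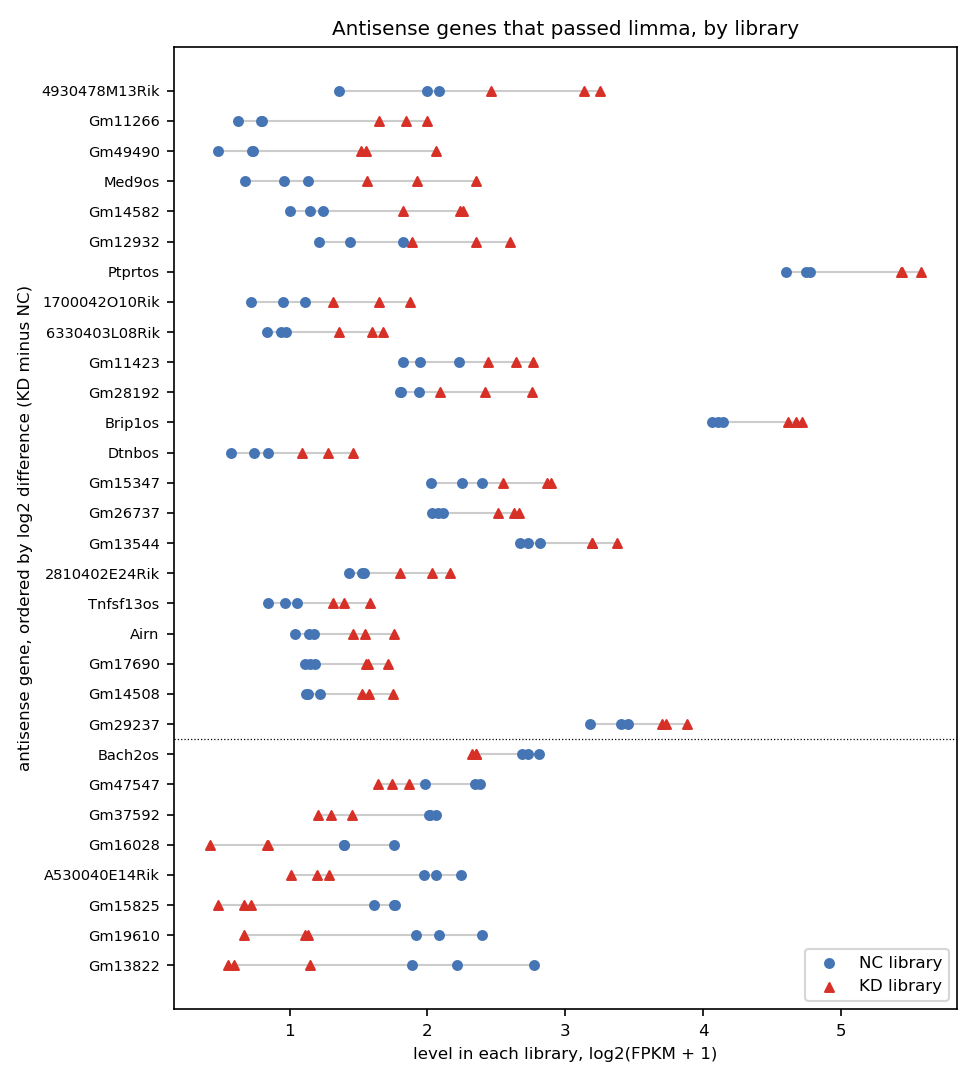
Level of each of the 30 antisense genes that passed limma, on the log2(FPKM + 1) scale, with a point per library (circles NC, triangles KD). The 22 genes above the dotted line were higher in KD and the 8 below it lower, and in each of them the libraries of the groups do not overlap.

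The largest falls were at head-to-head pairs in which the coding gene fell too. Gm13822 (ENSMUSG00000087477, chr5:114917318-114923277, minus strand) overlaps the first exon of Oasl1, an interferon-induced member of the oligoadenylate synthetase family, by 38 bases. It had 2.70, 5.82 and 3.65 FPKM in NC1 to NC3 and 0.469, 1.22 and 0.513 in KD1 to KD3, from 67 and 13 reads. All KD libraries lay below all NC libraries. The means were 4.06 ± 1.6 and 0.734 ± 0.42 FPKM (SD, n = 3), 5.52-fold lower in KD, with a log2 difference of -1.52 (SE 0.26, adjusted p = 0.00794). Oasl1 fell with it, from 70.9 ± 3.2 to 9.90 ± 0.39 FPKM or by 2.72 on the log2 scale (adjusted p = 2.51e-06). Gm13822 was the only member with a partner on a list of interferon-stimulated genes, and no member had a partner on the lists of matrix and TGF-beta genes or of cell cycle and p53 genes. The lists were short and do not cover these pathways. Acvr1c, the activin receptor gene opposite Gm13544, was on none of them.

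Gm19610 (ENSMUSG00000107350, chr5:91051871-91074773, minus strand) starts 151 bp from Ereg, which encodes the epidermal growth factor receptor ligand epiregulin. Its exons overlap those of Ereg by 141 bases, 14 of them coding (printed above). It had 4.27, 2.78 and 3.25 FPKM in NC and 1.19, 0.592 and 1.16 in KD, from 67 and 21 reads. Every KD library was below every NC library, with a log2 difference of -1.16 (SE 0.18, adjusted p = 0.00531). Ereg had 6.06, 5.59 and 4.48 FPKM in NC and 1.03, 0.731 and 0.788 in KD, and fell by 1.78 on the log2 scale (adjusted p = 0.000243).

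On chromosome 1, 2 members inside the same coding gene fell with it. C130026I21Rik had 3.52 ± 0.54 FPKM in NC and 0.724 ± 0.12 in KD (log2 difference -1.38, adjusted p = 0.000572). A530040E14Rik (ENSMUSG00000072109, chr1:85105946-85114035, plus strand) had 3.72, 2.93 and 3.18 FPKM in NC and 1.44, 1.30 and 1.02 in KD (log2 difference -0.92, adjusted p = 0.00263). It also overlaps A530032D15Rik, which fell from 3.31 to 1.35 FPKM (adjusted p = 0.00582). Gm16028 (chr1:85246851-85255465, plus strand) had 2.38, 1.63 and 1.63 FPKM in NC and 0.789, 0.339 and 0.797 in KD (log2 difference -0.81, adjusted p = 0.0171). The call of Gm16028 ended without NC1 (adjusted p = 0.0619). These loci belong to a cluster of similar genes, and how the authors' counting split reads between near-identical copies is not given, so their levels are uncertain.

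The remaining falls were at partners that did not pass or were not expressed. Gm15825 (ENSMUSG00000089787, chr1:19063300-19104840, minus strand) is head to head with Tfap2d, an AP-2 family transcription factor gene with 0 FPKM in all 6 libraries. It had 2.37, 2.40 and 2.06 FPKM in NC and 0.589, 0.395 and 0.644 in KD. The groups were far apart, with a log2 difference of -1.09 (SE 0.12, adjusted p = 0.00137) and 100 against 26 reads. The 171 coding bases that Gm15825 shares with Tfap2d (printed above) thus face a gene with no reads.

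Gm37592 (chr3:32511803-32512344, minus strand), within the zinc finger gene Zfp639, had 3.17, 3.04 and 3.04 FPKM in NC and 1.30, 1.46 and 1.74 in KD. It fell by 0.71 on the log2 scale (SE 0.09, adjusted p = 0.00332), from 55 to 29 reads. In voom on these few recovered reads its adjusted p was 0.0472, close to the threshold. Zfp639 had 8.31 ± 0.06 and 7.48 ± 0.99 FPKM, and its difference did not pass (adjusted p = 0.295). Bach2os (chr4:32559680-32571708, minus strand) lies inside Bach2, a transcriptional repressor gene of lymphocytes that had 0.461 FPKM in NC and 0.525 in KD and was too low to be tested. Bach2os had 5.62, 5.995 and 5.43 FPKM in NC and 4.11, 4.01 and 4.12 in KD, a log2 difference of -0.40 (SE 0.06, adjusted p = 0.00642).

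Gm47547, inside Dydc2, fell from 3.74 ± 0.69 to 2.37 ± 0.27 FPKM (log2 difference -0.49, adjusted p = 0.0359). That call ended without NC1, NC2, KD2 or KD3, and also once the median difference of each chromosome was removed (adjusted p up to 0.158 over the alternatives). Dydc2 was listed at 0 in 5 of the 6 libraries.

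Among the rises, Ptprtos and Brip1os were the most abundant. Ptprtos (ENSMUSG00000084919, chr2:162390813-162393945, plus strand) lies in an intron of Ptprt, a receptor tyrosine phosphatase gene. It had 23.3, 25.8 and 26.3 FPKM in NC and 46.9, 42.5 and 42.3 in KD, with 757 and 1441 reads. The KD libraries were 1.75 times as high as the NC libraries on average, a log2 difference of 0.78 (SE 0.07, adjusted p = 0.000749). Ptprt had 0.731, 0.983 and 0.675 FPKM in NC and 0.249, 0.278 and 0.159 in KD, below the level needed for the test. In the fit with no filter on level, Ptprt was lower by -0.55 (limma adjusted p = 0.0231) and Ptprtos remained higher.

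Brip1os (ENSMUSG00000085208, chr11:86201370-86304443, plus strand) spans Ints2, which encodes a subunit of the Integrator complex, and reaches Med13, a Mediator subunit gene. It had 15.7, 16.2 and 16.7 FPKM in NC and 23.5, 24.5 and 25.3 in KD. The groups were well apart, with a log2 difference of 0.56 (SE 0.06, adjusted p = 0.00104) from 5033 and 8244 reads. Ints2 had 5.26 ± 0.39 and 5.22 ± 0.59 FPKM (adjusted p = 0.931), and Med13 had 14.6 ± 0.55 and 15.8 ± 2.3 (adjusted p = 0.509). The ratio of Brip1os to Ints2 was higher in KD by 0.58, which missed the threshold of the ratio test given below (adjusted p = 0.0521).

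**Figure D2:**
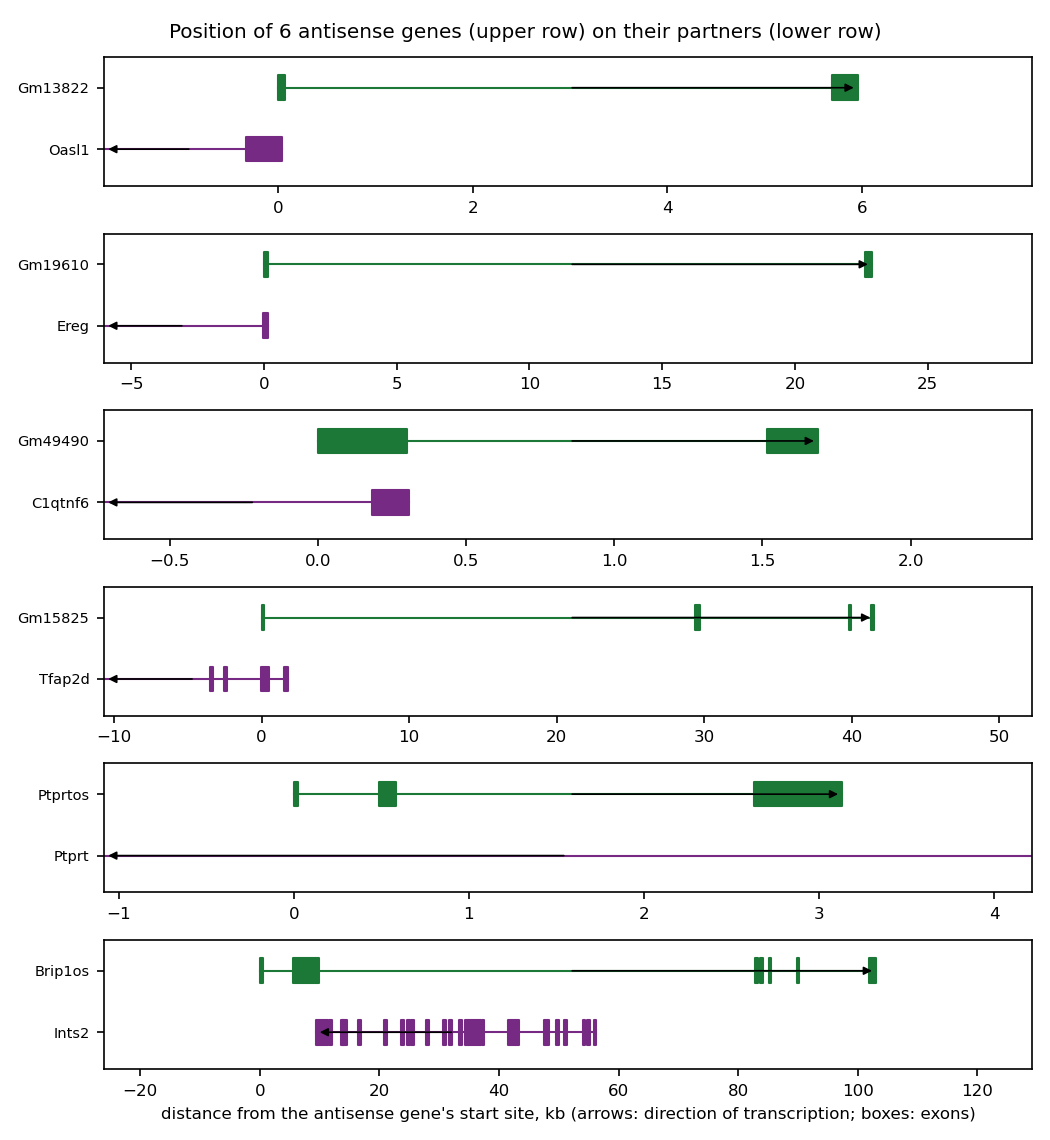
Exons (boxes) and direction of transcription (arrows) of 6 antisense genes, in green, above their partners, in purple, drawn to scale in kb from the start of the antisense gene. Gm13822 and Gm19610 overlap the partner only at the starts, Ptprtos lies where Ptprt has no exon, and Brip1os spans Ints2.

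The largest rises were in low members. Gm11266 (ENSMUSG00000087413, chr4:82508016-82547292, plus strand) lies inside Nfib, a transcription factor gene needed for lung maturation, with no shared exon. It had 0.735, 0.545 and 0.745 FPKM in NC and 2.59, 2.99 and 2.14 in KD, from 41 and 170 reads. All KD libraries were above all NC libraries, with a log2 difference of 1.09 (SE 0.13, adjusted p = 0.00190). Nfib rose with it, from 11.6 ± 0.56 to 20.8 ± 1.9 FPKM (log2 difference 0.79, adjusted p = 0.00109).

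Gm49490 (ENSMUSG00000116307, chr15:78531109-78532797, plus strand) is head to head with C1qtnf6, a gene for a secreted C1q and TNF related protein. It had 0.655, 0.397 and 0.664 FPKM in NC and 1.93, 3.18 and 1.87 in KD, from 13 and 57 reads. The groups did not overlap, with a log2 difference of 1.06 (SE 0.18, adjusted p = 0.00716). C1qtnf6 was at 24.01 ± 0.96 and 26.05 ± 0.19 FPKM and did not pass (adjusted p = 0.167).

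4930478M13Rik (chr15:100105234-100108161, minus strand), in an intron of Dip2b, had 3.23, 2.98 and 1.57 FPKM in NC and 7.81, 4.50 and 8.54 in KD. Its log2 difference was 1.14 (SE 0.27, adjusted p = 0.0238), and the call ended without NC2, NC3 or KD3. Dip2b was level at 9.86 and 9.69 FPKM (adjusted p = 0.800). Gm14582 (chrX:52296181-52333679, plus strand) lies in an intron of Gpc3, which encodes a cell-surface glypican. It had 1.36, 1.01 and 1.22 FPKM in NC and 3.77, 3.71 and 2.54 in KD (log2 difference 0.97, adjusted p = 0.00474). Gpc3 itself was under 1 FPKM, at 0.117 in NC and 0.292 in KD. In the fit with no filter on level it was higher by 0.21 (limma adjusted p = 0.0309).

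Med9os, Gm12932 and Gm11423 have no overlapping partner but lie within 200 bp of a coding gene on the other strand (Med9, Meaf6 and Lig3). Med9os had 0.945, 0.597 and 1.20 FPKM in NC and 4.10, 1.95 and 2.80 in KD (log2 difference 1.02, adjusted p = 0.0181). Its RefSeq window holds 30 CG dinucleotides and that of Gm11423 holds 29. Gm12932 had 1.71, 2.54 and 1.32 FPKM in NC and 2.70, 5.06 and 4.10 in KD (0.79, adjusted p = 0.0439), and Gm11423 rose from 3.03 ± 0.60 to 5.17 ± 0.69 FPKM (0.62, adjusted p = 0.0181). These calls were not stable. Med9os was lost without NC1 or NC2, Gm11423 without NC1 or NC3, and Gm12932 without NC1, NC3, KD2 or KD3. Each was also lost with no filter on level, and Gm12932 in voom on recovered reads and with chromosome medians removed.

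6330403L08Rik (chr5:138995056-139000577, plus strand) is head to head with Pdgfa, a growth factor gene for fibroblasts and their precursors. It had 0.913, 0.969 and 0.788 FPKM in NC and 1.57, 2.02 and 2.19 in KD, a log2 difference of 0.63 (adjusted p = 0.0124) that ended without KD2 (0.0566). Pdgfa had 17.4 ± 0.73 and 18.3 ± 1.8 FPKM (adjusted p = 0.580). Gm13544 (ENSMUSG00000086995), inside Acvr1c, had 5.63, 6.04 and 5.37 FPKM in NC and 9.39, 8.13 and 8.16 in KD (log2 difference 0.52, adjusted p = 0.00501). Acvr1c, an activin receptor gene whose coding exon Gm13544 faces (printed above), was below 0.14 FPKM in every library. Gm26737, whose start lies 594 bp from that of the ubiquitin ligase gene Rnf26, rose from 3.21 ± 0.11 to 5.08 ± 0.34 FPKM (0.53, adjusted p = 0.00361). Gm13544, Gm26737, Gm15347, Dtnbos, Gm17690, Tnfsf13os and Gm14508 are named after their values were seen.

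At 4 further members the partner rose too. Gm29237 rose by 0.43 (adjusted p = 0.0187) with the beta spectrin gene Sptbn1 (0.32, adjusted p = 0.00694), and Gm15347 by 0.55 (adjusted p = 0.0263) with the phospholipid flippase gene Atp11a (0.40, adjusted p = 0.00648). Dtnbos rose by 0.55 (adjusted p = 0.0339) with the dystrobrevin gene Dtnb (0.52, adjusted p = 0.00228), and Gm17690 by 0.46 (adjusted p = 0.0155) with Mtmr11 (0.36, adjusted p = 0.0194). The partner calls of Sptbn1, Atp11a and Dtnb held without any single library, and that of Mtmr11 held only without KD1. The member calls were weaker. Dtnbos was lost when any library was left out. Gm29237 was lost without NC1, NC3 or KD2, Gm15347 without NC1, NC2 or KD3, and Gm17690 without NC1, NC2, NC3 or KD2. Gm29237 was also lost with the replicate block and in voom on recovered reads. Gm15347 was also lost in voom and with chromosome medians removed. With no filter on level, Gm15347, Dtnbos and Gm17690 were lost.

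The last 6 rises were small or unstable. Those of Airn and 2810402E24Rik are given with the ratio test below. 1700042O10Rik, inside the decarboxylase gene Ddc, went from 0.913 to 2.09 FPKM (log2 difference 0.68, adjusted p = 0.0334) and was lost without NC1, NC2, NC3 or KD2. Gm28192, inside the casein kinase gene Csnk1d, went from 2.61 to 4.45 FPKM (0.57, adjusted p = 0.0476) and was lost without NC1, NC2, NC3 or KD3 and in 7 other alternatives. Tnfsf13os went from 0.943 to 1.71 FPKM (0.48, adjusted p = 0.0304) and was lost without NC1, NC2, NC3 or KD2. It was also lost with no filter, with the replicate block, with chromosome medians removed and in voom on recovered reads. Tnfsf12, a cytokine gene that it also overlaps, rose from 1.96 to 3.60 FPKM (adjusted p = 0.00925). Gm14508, tail to tail with Prkab1, went from 1.23 to 2.07 FPKM (0.46, adjusted p = 0.0203) and was lost without every library but KD1. It was also lost with no filter, with the replicate block and in voom on recovered reads.

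Across all 16 alternatives, or 15 for members under 5 FPKM, 13 of the 30 calls held. These were the falls of Gm13822, Gm19610, Gm15825, A530040E14Rik, Gm37592 and Bach2os and the rises of Ptprtos, Brip1os, Gm13544, Gm26737, Gm49490, Gm11266 and Gm14582. With no filter on level 16 of the 30 calls were kept. The losses given for single members are mainly those with a library left out, and several of these calls also ended under other alternatives. The alternative of median-of-ratios scaling had the same factor of 1.004 in every library, so it nearly repeats the main fit and says nothing on stability. Because members were chosen by a mean, 12 reached 1 FPKM only through NC (4 of them passed) and 25 only through KD (7 passed). Among the 13 calls that held, Gm13822, Gm19610 and Gm15825 reached it only through NC, and Gm49490 and Gm11266 only through KD. The direction of these calls is not independent of the level limit. Of the 176 at 1 FPKM or more in both groups, 15 were higher and 4 lower.

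**Figure D3:**
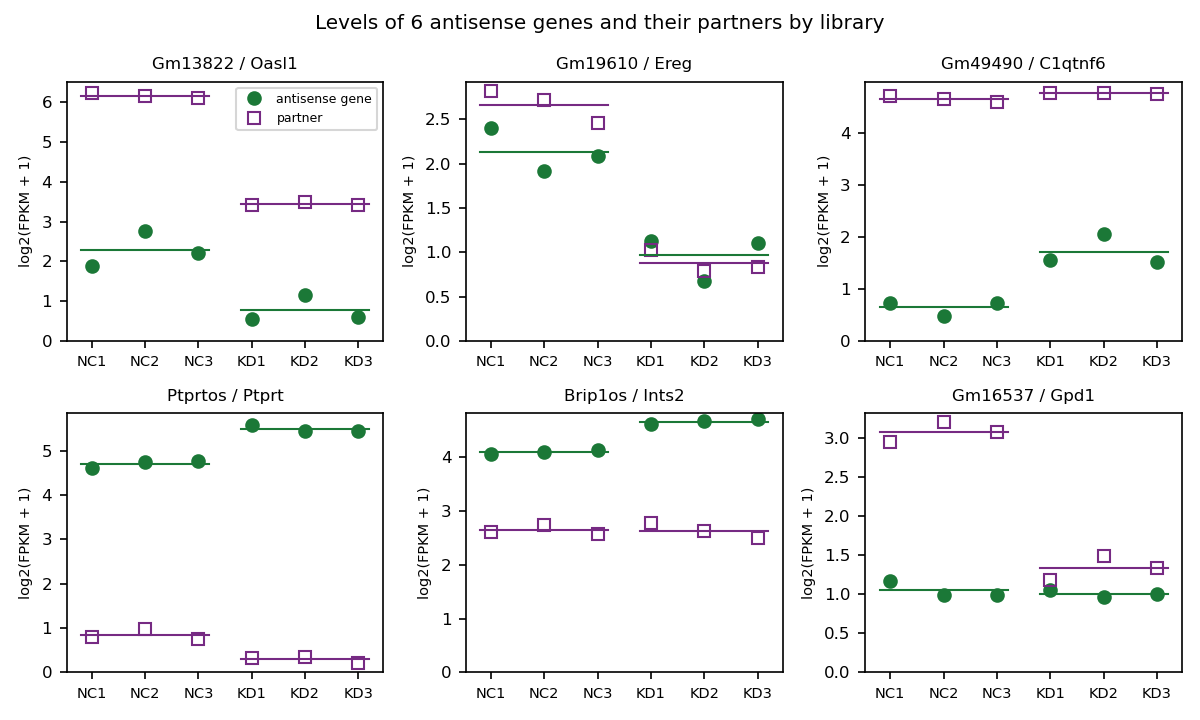
Level in each library of 6 antisense genes (filled circles) and their partners (open squares), on the log2(FPKM + 1) scale, with group means as lines. Gm13822 and Gm19610 fell with their partners, Ptprtos rose while Ptprt was lower, and the groups of Gm16537 overlap while Gpd1 fell.

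Members and partners tended to move in the same direction. In 162 main pairs both genes could be tested, and 115 had differences of the same sign. Pearson's r between the differences was 0.62 and Spearman's rho 0.50, a description across genes that share the same 6 libraries. Without Gm13822 and Gm19610, the pairs with the largest falls, r was 0.50 (n = 160). With Gm13822 and Gm19610 included again, r was 0.69 in the 100 pairs with exon overlap, to which both belong, and 0.48 in the 58 pairs without. Spearman's rho was 0.53 and 0.50, so by rank the pairs with and without exon overlap were alike. Of 14 called rises with a tested partner, the partner rose in 5, did not pass in 9 and fell in none. Of 5 called falls, the partner fell in 4 and did not pass in 1. These 4 are not separate partners, because A530040E14Rik and Gm16028 share C130026I21Rik, whose level is uncertain as stated above. Over all 183 tested partners, 27 were higher and 22 lower.

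**Figure D4:**
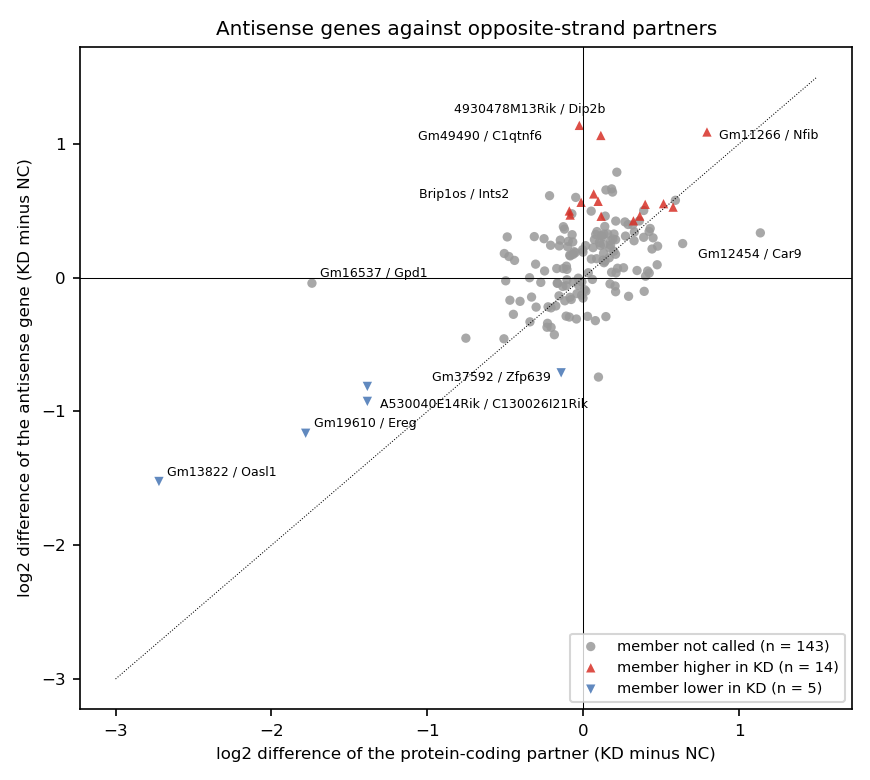
Log2 difference (KD minus NC) of 162 antisense genes against that of their main partner, each on the log2(FPKM + 1) scale. Points on the dotted line changed equally. Oasl1, Ereg, C130026I21Rik and their antisense genes lie at the lower left, and Gpd1 and Car9 lie far from 0 while their antisense genes do not.

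A member that passed beside a partner that did not is not thereby shown to differ from it, so the ratio of the pair was tested directly. All 1366 pairs of genes overlapping on opposite strands were fitted, and 77 passed (5.64%). Among the 162 pairs of members 6 ratios were higher in KD and 1 lower. The largest was at Gm16537 (chr15:99715543-99724474, minus strand) and Gpd1, the cytosolic glycerol phosphate dehydrogenase gene. Gm16537 had 1.24, 0.986 and 0.989 FPKM in NC and 1.08, 0.946 and 1.01 in KD, so the groups overlapped (log2 difference -0.04, adjusted p = 0.818). Gpd1 had 6.71, 8.22 and 7.39 FPKM in NC and 1.26, 1.81 and 1.52 in KD (log2 difference -1.74, adjusted p = 0.000171). The ratio was higher in KD by 1.70 (SE 0.16, limma adjusted p = 0.00801) and passed in 13 of 13 alternatives, although 54.7% of the exon bases of Gm16537 lie opposite Gpd1 exons. Among these alternatives, no filter and median-of-ratios scaling refit the same pairs with the same or equally scaled values. For every ratio they could thus hardly differ from the main fit.

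The other ratio calls were less stable. For Gm49490 and C1qtnf6 the ratio was higher by 0.95 (adjusted p = 0.0382), a call that ended without any single library but KD1. Gm37637, inside the mitochondrial ribosomal protein gene Mrps22, had 1.25 FPKM in NC and 1.55 in KD while Mrps22 fell from 11.3 to 7.68 FPKM (adjusted p = 0.00366). Their ratio was higher by 0.69 (adjusted p = 0.0272), and the call was kept without KD1 or KD3 and lost without NC1, NC2, NC3 or KD2. Tspan32os had 4.75 ± 0.28 and 6.16 ± 1.2 FPKM beside the tetraspanin gene Tspan32 with 1.91 ± 0.18 and 1.08 ± 0.10. Tspan32os itself passed only without KD1 (adjusted p = 0.0457). The ratio was higher by 0.79 (adjusted p = 0.0438), lost without any library but KD1, and the fall of Tspan32 itself (adjusted p = 0.0164) ended without NC1, NC2 or KD2.

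2810402E24Rik had 1.70, 1.88 and 1.91 FPKM in NC and 3.09, 3.48 and 2.49 in KD, while Usp54, whose start is 54 bp away, had 2.43 and 2.22. The member rose by 0.50 (adjusted p = 0.0208), which was lost without NC1, NC2, NC3 or KD2, and the ratio rose by 0.59 (adjusted p = 0.0382), a call kept only without KD3. Gm12454 had the only lower ratio. It had 1.78, 1.51 and 1.92 FPKM in NC and 2.55, 2.90 and 1.97 in KD (limma adjusted p = 0.103), while Car9, a carbonic anhydrase gene induced by low oxygen, rose from 17.1 ± 1.5 to 38.7 ± 3.3 FPKM (adjusted p = 0.000396). Gm12454 itself passed only without KD3 (adjusted p = 0.0481). The ratio fell by 0.80 (adjusted p = 0.0382) and kept its call, of the single libraries, only without KD2.

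Airn, the imprinted antisense RNA of Igf2r, was among the members (chr17:12741311-12860136, plus strand). It had 1.06, 1.26 and 1.21 FPKM in NC and 2.39, 1.75 and 1.92 in KD, from 202 and 380 reads. Its log2 difference was 0.47 (SE 0.12, adjusted p = 0.0280), and the call was kept only without KD1 among the single libraries left out. Removing chromosome medians also ended it, and the median difference of tested genes on chromosome 17 was 0.17. Other chromosomes were shifted too, with medians of -0.22 on chromosome 6, -0.19 on chromosomes 14 and 10, -0.15 on chromosome 1 and 0.17 on chromosome 8. Igf2r, which encodes the receptor that carries Igf2 to lysosomes, had 42.5, 44.5 and 42.1 FPKM in NC and 40.1, 41.2 and 40.2 in KD (limma adjusted p = 0.270). The ratio of Airn to Igf2r was higher by 0.55 (adjusted p = 0.0451), again kept only without KD1.

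Other described antisense RNAs among the members, except Brip1os, did not pass with all 6 libraries. Dnm3os, host of a microRNA cluster inside Dnm3, had 2.35, 2.09 and 2.05 FPKM in NC and 2.69, 2.22 and 2.34 in KD (limma adjusted p = 0.420), while Dnm3 itself was under 0.1 FPKM in every library. Rab26os had 2.15 ± 0.88 and 2.09 ± 1.3 FPKM (adjusted p = 0.900) from 51 and 53 reads. In the Hox clusters, which set position along the body axis, Hoxb5os had 4.56, 2.89 and 4.90 FPKM in NC and 4.19, 9.28 and 6.96 in KD, and did not pass (log2 difference 0.58, adjusted p = 0.166). Without KD1 it passed, with a log2 difference of 0.85 (adjusted p = 0.0220). The genes it spans did pass, Hoxb6 with 14.3 and 22.2 FPKM (0.59, adjusted p = 0.00891) and Hoxb5 with 4.60 and 6.37 FPKM (0.40, adjusted p = 0.0116).

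Hoxaas3 had 1.05 ± 0.29 FPKM in NC and 1.70 ± 0.29 in KD (limma adjusted p = 0.0898), and passed once chromosome medians were removed (log2 difference 0.62, adjusted p = 0.0272). It crosses 6 annotated coding genes, of which Hoxa5 rose from 10.7 to 14.1 FPKM (adjusted p = 0.00546). Hotairm1 had 1.37 ± 0.36 and 1.70 ± 0.75 FPKM (adjusted p = 0.664). Of the other listed antisense genes, Kcnq1ot1 had a mean of 0.287 FPKM, Hoxb3os 0.764 and Hoxd3os1 0.624, and Tsix and Nespas were listed at 0.

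Several genes that remove or process antisense RNA fell. In nuclear RNA decay 6 of 18 tested genes were lower and none higher, with a median difference of -0.17. Over all 12299 tested genes 13.6% were lower and 10.9% higher, with a median of 0.01, and nothing particular to the list is read from these counts. The exosome nuclease gene Dis3 fell from 19.7 to 12.5 FPKM (log2 difference -0.61, adjusted p = 0.00296), and this call held without any single library. Zfc3h1 (-0.50), Exosc9 (-0.36) and Exosc1 (-0.34) also fell, but Zfc3h1 and Exosc9 kept their calls only without KD1, and Exosc1 was lost without NC1, NC2 or KD2. Pabpn1 went the other way by more than Exosc9 or Exosc1, from 3.48 to 4.89 FPKM. Its log2 difference of 0.39 just missed the threshold (limma adjusted p = 0.0507). Upf1 (0.26) and Exosc3 (0.23) were also above 0 and did not pass. The count of lower genes was 8 without KD1, with 3 then higher, and 1 to 3 without any other library.

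Among 13 tested genes for editing, cleavage and binding of double-stranded RNA 4 were lower and 1 higher, with a median of -0.13, against the same 13.6% and 10.9% over all tested genes. The editing enzyme gene Adar fell from 34.1 to 22.9 FPKM (-0.56, adjusted p = 0.000562), Drosha from 57.6 to 39.0 (-0.55, adjusted p = 0.000823) and Tarbp2 from 14.98 to 9.92 (-0.55, adjusted p = 0.00199). These 3 calls held without any single library, while that of Stau2 (-0.33, adjusted p = 0.0197) held only without KD1. Of 17 genes of transcription termination and 3′ end formation, only Cpsf2 was lower (-0.30, adjusted p = 0.00928, lost without NC1 or NC2) and only Ints3 higher (0.19, adjusted p = 0.0363, held only without KD1), with a median of -0.09. Whether the levels of these enzymes bear on the antisense RNAs was not tested.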

How the data were processed

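The authors deposited FPKM values per gene for 6 libraries, with gene positions, biotypes and, per the file headers, gene length. Reads were paired-end and aligned with HISAT2 2.0.5, per the labels' protocols, to mm10, per the submitters' processing notes. The sources used here do not give the counting tool, its strand setting, the annotation or whether fragments were counted. FPKM times length gave whole multiples of 1 step per library for 100.0% of values within 0.01, so reads were recovered. Depth was 15907164 to 18312888 reads.

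The groups were compared on log2(FPKM + 1) by a linear model in limma 3.58.1 (R 4.3.3) with trended empirical Bayes moderation. Benjamini-Hochberg adjusted p-values covered the 12299 genes whose mean reached 1 FPKM, at a threshold of 0.05. The ratio test used a limma model without the intensity trend on the difference of log2 values within 1366 overlapping pairs. The code was tested on simulated data. Exons came from GENCODE M21, where 211 of 213 members had the deposited coordinates. Where a member had several partners, each was kept, and the gene overlapping the most bases was the main partner. Python 3.11.15, pandas 2.3.3 and matplotlib 3.10.9 made tables and plots.

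Named members were the 12 largest rises and falls past the threshold with groups that do not overlap, the 8 highest means, those on a list of described RNAs, up to 6 ratio calls per direction and the 3 genes on each side of the level limit. Other members that passed were added after their values were seen. Members and lists were chosen with earlier results of these data known. Alternatives were pseudocounts of 0.1 and 5, a filter of 5 FPKM or none, scaling by median of ratios or quantiles, no intensity trend, a replicate block, removal of chromosome medians, voom on recovered reads, and each library left out. Deviations of same-numbered NC and KD libraries correlated at 0.08, -0.04 and 0.15, so the replicate numbers were not taken to pair the samples. Groups of 3 were too small for an outlier test. The values of 1 partner gene are not reported here.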

Additional observations from a re-analysis of the deposited data

How the results depend on the processing

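With all 6 libraries 22 members were higher and 8 lower, 27 partners higher and 22 lower, and 6 member-to-partner ratios higher and 1 lower. With no filter 9 members were higher, and with a filter of 5 FPKM 4 members were higher and 0 lower, with 1 ratio higher and 0 lower. A pseudocount of 5 gave 13 ratios higher and 4 lower, and a pseudocount of 0.1 gave 0 lower. The replicate block gave 18 members higher and 10 lower, 24 partners higher and 19 lower, and 1 ratio higher and 0 lower, and 25 of the 30 member calls were kept. Leaving out 1 library gave 9 (without NC1) to 31 (without KD1) members higher and 6 to 13 lower, 17 to 50 partners higher and 14 to 39 lower, and 1 to 9 ratios higher and 0 to 1 lower. The cause of these changes was not tested, except that the stricter filter left few members to test. The ratio test had no intensity trend in any fit, so that alternative did not apply to it, and no ratio value was made for voom. Quantile scaling kept 29 of the 30 member calls, voom and removal of chromosome medians 24 each, and no call changed sign. Median-of-ratios scaling kept all 30, but its factor was 1.004 in every library. It therefore nearly repeats the main fit and could not show a dependence on scaling. Quantile scaling raised the number of members lower to 9. Of the members, 47 had fewer than 100 reads over 6 libraries, and the bearing of read number on the calls was not tested. A group of 3 libraries against 3 allows no exact permutation p below 0.10.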
